A study of Mus musculus with 6 samples.

Results

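The Williams-Beuren syndrome region holds, beside its transcription factors, a set of genes whose products work at the membrane, at cell junctions, in the cytoskeleton and in the extracellular matrix. RNA levels of 10 of these genes were followed here: Limk1, Clip2, Stx1a, Fzd9, Eln, Cldn3, Cldn4, Lat2, Ncf1 and Vps37d. They were chosen by name, as the region's genes of these functions, out of 18193 genes. All 10 were measured, by 21 of the 45037 probe sets analysed, 6 genes by several probe sets and 4 by 1, and none of the 21 is annotated with a further gene.

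The 6 arrays were hybridized with RNA of mouse embryonic stem cells derived from the line EBRTcH3 (EB3). Clones A1, B3 and C6, each a separate transgenic clone, carry the human GTF2I coding sequence with a 3xFLAG tag at the ROSA26 locus, behind a promoter that tetracycline keeps off. The 3 induced arrays came from these clones grown for 24 hours without tetracycline, and the 3 uninduced arrays (0 hours) from the same clones kept in tetracycline. Both groups carry the transgene and were cultured with leukemia inhibitory factor. The sample titles name GTF2I, but GTF2IRD2 is given in 1 of their characteristics; the titles were followed. No line without the transgene was used here, so the effects of the transgene and of tetracycline withdrawal cannot be told apart. No probe set was placed against the human transgene, so the induction was not checked on these arrays. The study followed the transgene transcript in these clones separately, by real-time RT-PCR after tetracycline removal.

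In humans the loss of 1 copy of this region causes Williams-Beuren syndrome, and loss of the elastin gene is known to underlie its narrowing of the aorta. Limk1 encodes a kinase that phosphorylates cofilin and thereby slows the turnover of actin filaments, and Clip2 a protein of growing microtubule ends. Claudin-3 and claudin-4 are proteins of tight junction strands, syntaxin-1A is a membrane SNARE of synaptic vesicle fusion, and Fzd9 is a Frizzled receptor for Wnt ligands. Lat2 and Ncf1 are best known from blood cells, as a signalling adaptor and as a cytosolic subunit of the phagocyte NADPH oxidase, and Vps37d is a subunit of the ESCRT-I complex of endosomal sorting. In the mouse all 10 genes lie on chromosome 5, in the order Ncf1, Clip2, Lat2, Limk1, Eln, Cldn4, Cldn3, Stx1a, Vps37d and Fzd9.

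The 250 bases before the start of 4 of the genes are shown because these genes stand for the patterns described below, and they were picked with their values known. Fzd9 was lower in the induced array of every clone, and Cldn4 hardly moved within any clone. Vps37d and the brightest probe set of Cldn3 ran one way in A1 and the other way in B3 and C6. The dimmest probe set of Cldn3 was instead lower in the induced array of every clone. The sequences are from RefSeq (GRCm38.p6), written 5′ to 3′ on the strand of the gene. Capitals mark the GC box GGGCGG and the E-box CACGTG, each searched on both strands.
Fzd9 (chr5:135251048-135251297, minus strand): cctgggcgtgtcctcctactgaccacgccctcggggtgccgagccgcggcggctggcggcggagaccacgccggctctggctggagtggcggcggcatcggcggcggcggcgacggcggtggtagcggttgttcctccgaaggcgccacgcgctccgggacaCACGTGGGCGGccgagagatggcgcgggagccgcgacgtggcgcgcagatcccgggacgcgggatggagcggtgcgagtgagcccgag
Cldn3 (chr5:134985964-134986213, plus strand): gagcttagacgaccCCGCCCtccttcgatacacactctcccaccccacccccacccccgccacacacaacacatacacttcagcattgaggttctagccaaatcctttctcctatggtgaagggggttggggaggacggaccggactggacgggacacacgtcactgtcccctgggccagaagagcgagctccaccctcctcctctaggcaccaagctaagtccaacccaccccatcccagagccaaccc
Vps37d (chr5:135078267-135078516, minus strand): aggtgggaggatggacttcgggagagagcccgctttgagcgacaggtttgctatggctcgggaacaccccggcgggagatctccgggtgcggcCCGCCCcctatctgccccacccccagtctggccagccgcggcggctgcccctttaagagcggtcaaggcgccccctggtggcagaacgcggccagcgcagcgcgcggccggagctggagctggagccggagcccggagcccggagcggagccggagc
Cldn4 (chr5:134946935-134947184, minus strand): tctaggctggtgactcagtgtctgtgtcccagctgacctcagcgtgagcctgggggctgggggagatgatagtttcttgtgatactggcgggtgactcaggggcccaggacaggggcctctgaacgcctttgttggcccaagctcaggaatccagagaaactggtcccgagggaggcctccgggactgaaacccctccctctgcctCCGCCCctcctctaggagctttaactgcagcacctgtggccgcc
Promoters of 8 of the 10 genes were found in the RefSeq table, 9 promoters in all since Limk1 had 2; Eln and Lat2 were not among them. A GC box, the sequence bound by Sp1, occurred in 8 of the 9, including at least 1 promoter of each of the 8 genes, against 32.7% of 32851 mouse promoters of this length. The 9 held 54.4% to 76.4% G and C, against a median of 52.4%. An E-box CACGTG, a sequence that TFII-I (the product of GTF2I) is known to bind together with other factors, was present in Fzd9 alone and in 6.02% of all promoters; in Fzd9 it shares 1 base with the GC box. GGATTA, a core sequence known for the relative GTF2IRD1, was in 0 of the 9 and in 6.25% of all promoters, and the TATA box TATAAA in 0 of the 9 and in 12.4%. These are matches of letters and not measured binding.

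The arrays had medians of 5.06 to 5.11 and lower quartiles of 3.66 to 3.73 on the log2 scale of robust multiarray averaging (RMA), the scale of every level below; levels of different probe sets are not comparable with each other. The stem cell genes Pou5f1 (12.70 to 13.15), Nanog (12.12 to 12.52) and Sox2 (12.13 to 12.38) were high on every array. The mean level over 10 fibroblast and feeder genes was 4.55 to 4.65 in induced and 4.56 to 4.62 in uninduced arrays, and over 7 blood cell genes 4.44 to 4.56 in induced and 4.43 to 4.49 in uninduced arrays. Of these 2 lists Ptprc, Itgam, Col3a1 and Lum were below the lower quartile on all 6. Others had means over the 6 arrays above every array median, among them Thy1 (6.69), Acta2 (6.22), Cd3e (6.35) and Spi1 (5.85). The mean level was 5.04 to 5.41 in induced and 5.09 to 5.46 in uninduced arrays for 8 trophectoderm genes, 4.98 to 5.22 in induced and 5.03 to 5.22 in uninduced arrays for 8 primitive endoderm genes and 6.38 to 6.60 in induced and 6.39 to 6.68 in uninduced arrays for 8 neural genes. Across all probe sets the induced minus uninduced differences of A1 correlated negatively with those of B3 (r = -0.39) and C6 (r = -0.48), and those of B3 and C6 positively (r = 0.46), so the clones are given one by one throughout.

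No gene of the set passed the test between induced and uninduced arrays. The differences of the 21 probe sets lay between -0.28 and 0.25 on the log2 scale, 8 above and 13 below 0, with a median of -0.03 against 0.00 over all probe sets, and the 95% interval of each held 0. Limma called 0 of 45037 probe sets (0%) at an adjusted p of 0.05. The t-test named in the methods, run here as Welch's, also called 0. An unadjusted p under 0.05 was found for 436 (0.968%) by limma and for 609 (1.35%) by Welch's t-test. Of the 21 member probe sets 0 had an unadjusted p under 0.05 in either test. In none of the 21 did the 3 induced arrays separate from the 3 uninduced ones, which occurred at 4.55% of all probe sets (2.29% with induced arrays higher and 2.26% with induced arrays lower). The intervals reached between 0.21 and 0.48 to either side of the estimate. In such bulk RNA, fewer cells with a transcript and less of it per cell cannot be told apart.

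**Figure D1:**
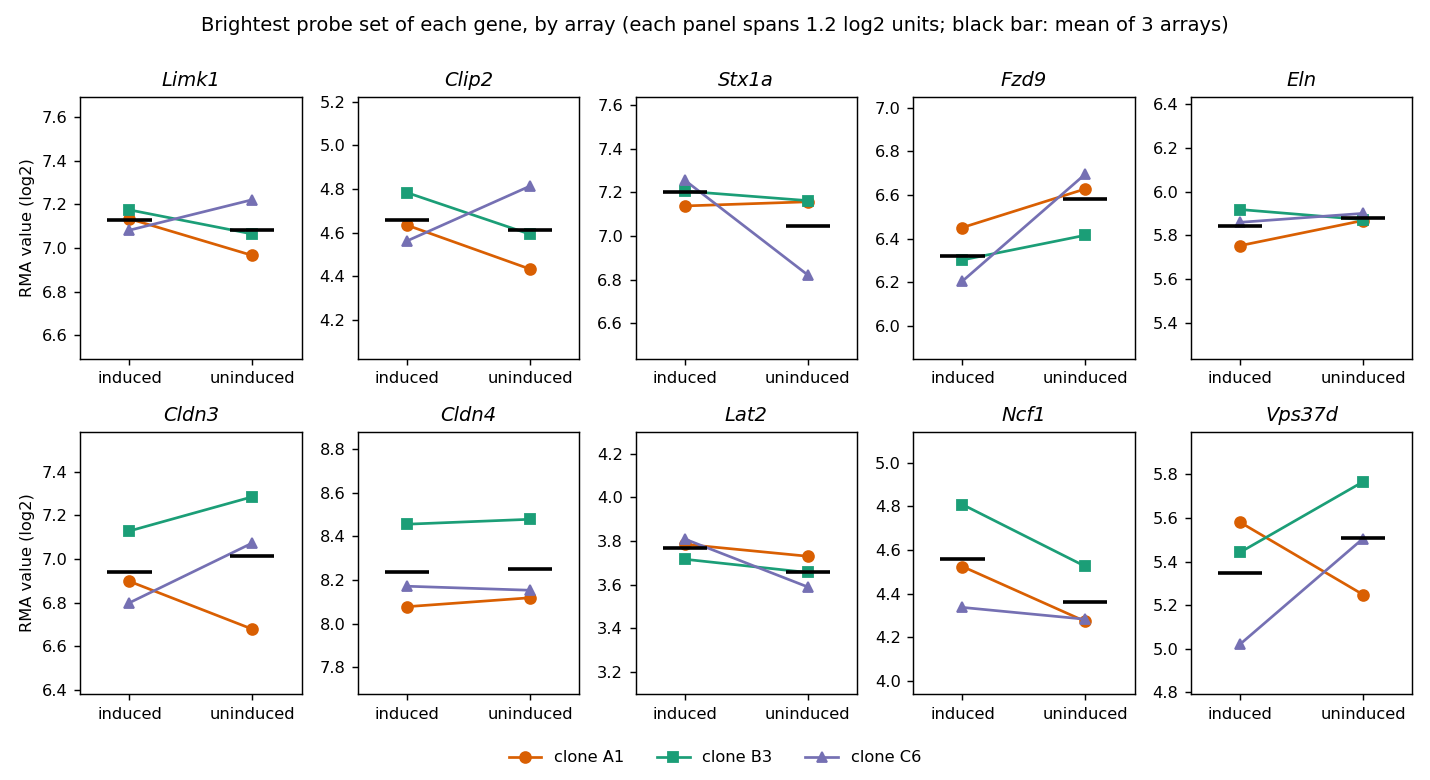
RMA values (log2) of the brightest probe set of each of the 10 genes, with induced arrays on the left and uninduced arrays on the right of each panel, 1 line per clone and a black bar for the average of the 3 arrays. The groups overlap for every gene, and Fzd9 lies lower in the induced array of each clone.

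Fzd9, the Wnt receptor, had the smallest p of the set. Its 1 probe set (1427529_at) stood at 6.45, 6.30 and 6.21 in induced A1, B3 and C6, against 6.63, 6.42 and 6.70 in the uninduced arrays. Each induced array was below the uninduced array of its own clone, yet the induced array of A1 was above the uninduced array of B3, so the groups overlapped. The mean was 6.32 ± 0.12 in induced and 6.58 ± 0.15 in uninduced arrays (SD over 3 arrays each), a difference of -0.26 (95% interval -0.53 to 0.01, limma unadjusted p = 0.0562, adjusted p = 1.00). By clone the differences were -0.18 (A1), -0.11 (B3) and -0.49 (C6). A drop in every clone was found at 9.16% of all probe sets and a gain in every clone at 9.69%. Of the 21 member probe sets 2 (9.52%) were lower in each clone, that of Fzd9 and 1 of the 4 of Cldn3, and 4 (19%) were higher in each, 2 of Ncf1 and 1 each of Limk1 and Lat2.

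Limk1, the cofilin kinase, gave different answers with its 3 probe sets. The brightest (1417627_a_at) stood at 7.13, 7.17 and 7.08 in induced A1, B3 and C6, against 6.97, 7.06 and 7.22 in the uninduced arrays. It was slightly higher in induced A1 and B3 and slightly lower in induced C6, a mean difference of 0.05 ± 0.10 (SE). The next (1425836_a_at) stood at 6.32, 6.28 and 5.98 in induced and 6.18, 6.56 and 6.39 in uninduced arrays, a difference of -0.18 ± 0.14, with clone differences of 0.15 (A1), -0.28 (B3) and -0.41 (C6). The dimmest (1456234_at) was higher in the induced array of every clone, at 5.19, 5.17 and 5.09, against 4.86, 5.11 and 4.74 when uninduced. Its difference of 0.25 (95% interval -0.03 to 0.52, limma unadjusted p = 0.0707, adjusted p = 1.00) was the highest of the 21. Over the 6 arrays the brighter pair correlated at r = 0.27, and the dimmest probe set with neither.

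Clip2, of the microtubule plus end, has 1 probe set (1422984_at), with levels of 4.63, 4.78 and 4.56 in induced A1, B3 and C6, against 4.43, 4.59 and 4.81 in the uninduced arrays. It was higher in induced A1 and B3 and lower in induced C6, with clone differences of 0.20 (A1), 0.19 (B3) and -0.25 (C6) and a mean of 0.05 ± 0.12 (SE). Clip2 followed the brightest probe set of Limk1 over the 6 arrays (r = 0.97), the highest correlation between any 2 members, a description over 6 points that share their clones.

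Stx1a, the syntaxin of synaptic vesicle fusion, was measured by a pair of probe sets that ran in opposite directions (r = -0.62 over the 6 arrays). The brighter (1437390_x_at) stood at 7.14, 7.21 and 7.26 in induced A1, B3 and C6, against 7.16, 7.16 and 6.82 in the uninduced arrays. The uninduced array of C6 was low and the others lay close together; the difference was 0.15 ± 0.12 (SE) with that array and 0.04 without it. The dimmer (1448366_at) stood at 5.20, 4.97 and 4.65 in induced and 4.87, 5.08 and 5.17 in uninduced arrays, a difference of -0.10 ± 0.16. Here the induced array of C6 was the lowest, and the clone differences were 0.32 (A1), -0.11 (B3) and -0.53 (C6).

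Eln, the gene of elastin, had the narrowest span of the 21 probe sets. Its brighter probe set (1420855_at) stood at 5.75, 5.92 and 5.86 in induced A1, B3 and C6, against 5.87, 5.87 and 5.90 in the uninduced arrays. All 6 values lay close together, and the difference was -0.04 (95% interval -0.25 to 0.18). The dimmer probe set (1420854_at) stood at 5.40, 5.66 and 5.60 in induced and 5.43, 5.75 and 5.51 in uninduced arrays, a difference of -0.01 (95% interval -0.30 to 0.27).

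For Cldn3 and Cldn4 the clones lay further apart than the states. Cldn4 (1418283_at) stood at 8.08, 8.46 and 8.17 in induced A1, B3 and C6, against 8.12, 8.48 and 8.15 in the uninduced arrays. Within a clone its arrays differed by 0.04 or less, and the mean difference was -0.01 (95% interval -0.35 to 0.32). The brightest probe set of Cldn3 (1434651_a_at) stood at 6.90, 7.13 and 6.80 in induced and 6.68, 7.28 and 7.07 in uninduced arrays. It was higher in induced A1 and lower in induced B3 and C6, with clone differences of 0.22 (A1), -0.16 (B3) and -0.27 (C6) and a mean of -0.07 ± 0.17 (SE). The probe sets 1460569_x_at and 1451701_x_at differed by -0.03 and -0.07, also with A1 opposite to B3 and C6. The dimmest (1426332_a_at) had the lowest difference of the 21, -0.28 (95% interval -0.67 to 0.12, limma unadjusted p = 0.147, adjusted p = 1.00). It was lower in the induced array of every clone, at 5.37, 5.69 and 5.54, against 5.45, 6.06 and 5.92 when uninduced. The 4 probe sets of Cldn3 ran together over the 6 arrays (r = 0.85 to 0.97) and read 1 gene, so they are not separate evidence; the suffix x marks probe sets with probes that may also bind other transcripts.

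Vps37d, the ESCRT-I subunit, is read by 1457736_at, which stood at 5.58, 5.44 and 5.02 in induced A1, B3 and C6, against 5.25, 5.77 and 5.51 in the uninduced arrays. The induced array was above the uninduced one in A1 and below it in B3 and C6, with clone differences of 0.33 (A1), -0.32 (B3) and -0.48 (C6). The mean difference of -0.16 ± 0.18 (SE) therefore averages clones that ran opposite ways.

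Of the genes best known from blood cells, Lat2 lay near the lower quartile of the arrays, and the brightest probe set of Ncf1 between the lower quartile and the median on all 6. The brightest probe set of Lat2 (1426169_a_at) stood at 3.78, 3.72 and 3.81 in induced A1, B3 and C6, against 3.73, 3.66 and 3.59 in the uninduced arrays, and was below the lower quartile on 3 of the 6. It was higher in the induced array of each clone, by 0.11 ± 0.09 (SE) in the mean, while 1443039_at differed by 0.00 and 1443040_x_at, below the lower quartile on all 6 arrays, by -0.11. Ncf1 was read by 1456772_at at 4.52, 4.81 and 4.34 in induced and 4.27, 4.53 and 4.28 in uninduced arrays, a difference of 0.20 ± 0.14. Its dimmest probe set (1425609_at) was likewise higher in the induced array of each clone and differed by 0.20 ± 0.11, though it was below the lower quartile on 5 arrays. The remaining one (1451767_at) differed by -0.03 ± 0.10. For both Ncf1 probe sets that were higher in each clone the groups overlapped.

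**Figure D2:**
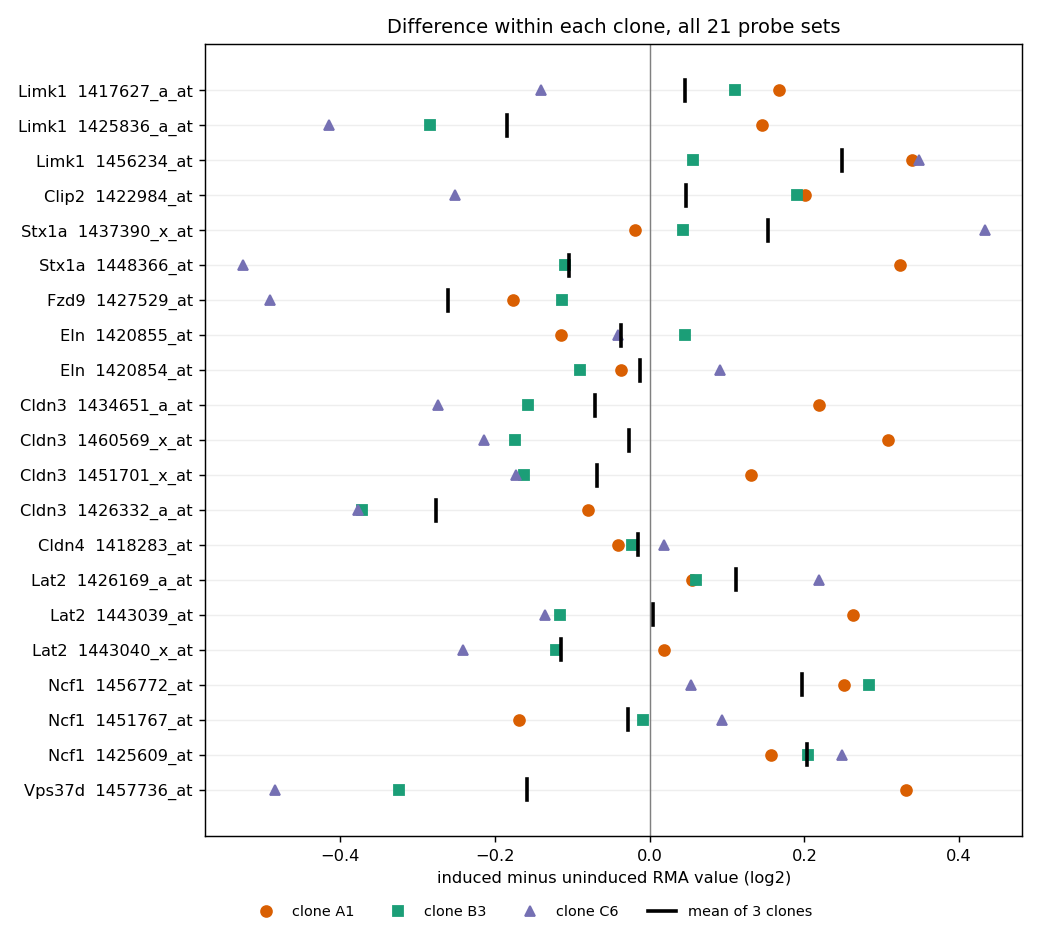
Induced minus uninduced difference (log2) within each clone for the 21 probe sets, with 1 point per clone and a black bar for the average over 3 clones. The 3 clones lie on the same side of 0 for 6 probe sets, and A1 lies opposite to both B3 and C6 for 9, among them 3 of the 4 of Cldn3 and that of Vps37d.

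Probe sets of the same gene did not always share a direction: of the 6 genes with several, 4 (Limk1, Stx1a, Lat2 and Ncf1) had probe sets on both sides of 0, and 2 (Eln and Cldn3) did not. A total of 12 probe sets turned sign in at least 1 alternative, and 9 kept it in all that were run (2 of Limk1, 1 of Stx1a, that of Fzd9, 1 of Cldn3, 2 of Lat2 and 2 of Ncf1).

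Whether clone A1 differed from the others was asked of each probe set by setting the difference in A1 against the mean difference in B3 and C6, a contrast chosen with the opposite movement of A1 known. None of the 21 member probe sets passed, where limma called 1219 of all probe sets (2.71%), 769 (1.71%) higher and 450 (0.999%) lower in A1. An unadjusted p under 0.05 was found for 5 of the 21 (23.8%) and for 7682 (17.1%) of all. Vps37d came closest, with 0.33 in A1 against -0.40 in the mean of B3 and C6, a contrast of 0.73 (95% interval 0.31 to 1.16, limma unadjusted p = 0.00345, adjusted p = 0.0792). Next by p were the Stx1a probe set 1448366_at at 0.64 (0.15 to 1.13, limma adjusted p = 0.17) and the Cldn3 probe set 1460569_x_at at 0.50 (0.09 to 0.91, limma adjusted p = 0.198). The Limk1 probe set 1425836_a_at stood at 0.49 (0.07 to 0.91, limma adjusted p = 0.213) and the Cldn3 probe set 1434651_a_at at 0.43 (0.02 to 0.85, limma adjusted p = 0.275). Contrasts were above 0 for 14 probe sets and below 0 for 7, with a median of 0.18 against -0.01 over all probe sets. A1 moved against both other clones at 9 of the 21 (42.9%) and at 41.6% of all probe sets; in the brighter range, with a mean level of 6 or more, it did so at 5 of 8 (62.5%) and at 60.3% of all. Counted by probe sets, the share of members was near the background. Counted by the brightest probe set of each gene it was 3 of 10 (30%), against 45.7% of all genes. The median contrast of these 10 was 0.10, against 0.00 over all genes. The contrast rests on 1 difference in A1, which is assumed to vary like the others, and leaves 1 residual degree of freedom before the spread is pooled over probe sets.

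Fzd9, Cldn4 and the brighter Eln probe set had contrasts of 0.12 (95% interval -0.35 to 0.60), -0.04 (-0.45 to 0.37) and -0.12 (-0.53 to 0.30). These intervals do not show that the clones moved alike. With B3 and C6 alone and the clone as a replicate block, 392 of all probe sets were higher (0.87%) and 589 lower (1.31%) in induced arrays, and none of these was a member. The members with the smallest p in that fit were Vps37d at -0.40 ± 0.11 (SE, adjusted p = 0.0997), Cldn3 1426332_a_at at -0.37 ± 0.11 (adjusted p = 0.112) and Limk1 1425836_a_at at -0.35 ± 0.11 (adjusted p = 0.142), all by limma with 2 clones.

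**Figure D3:**
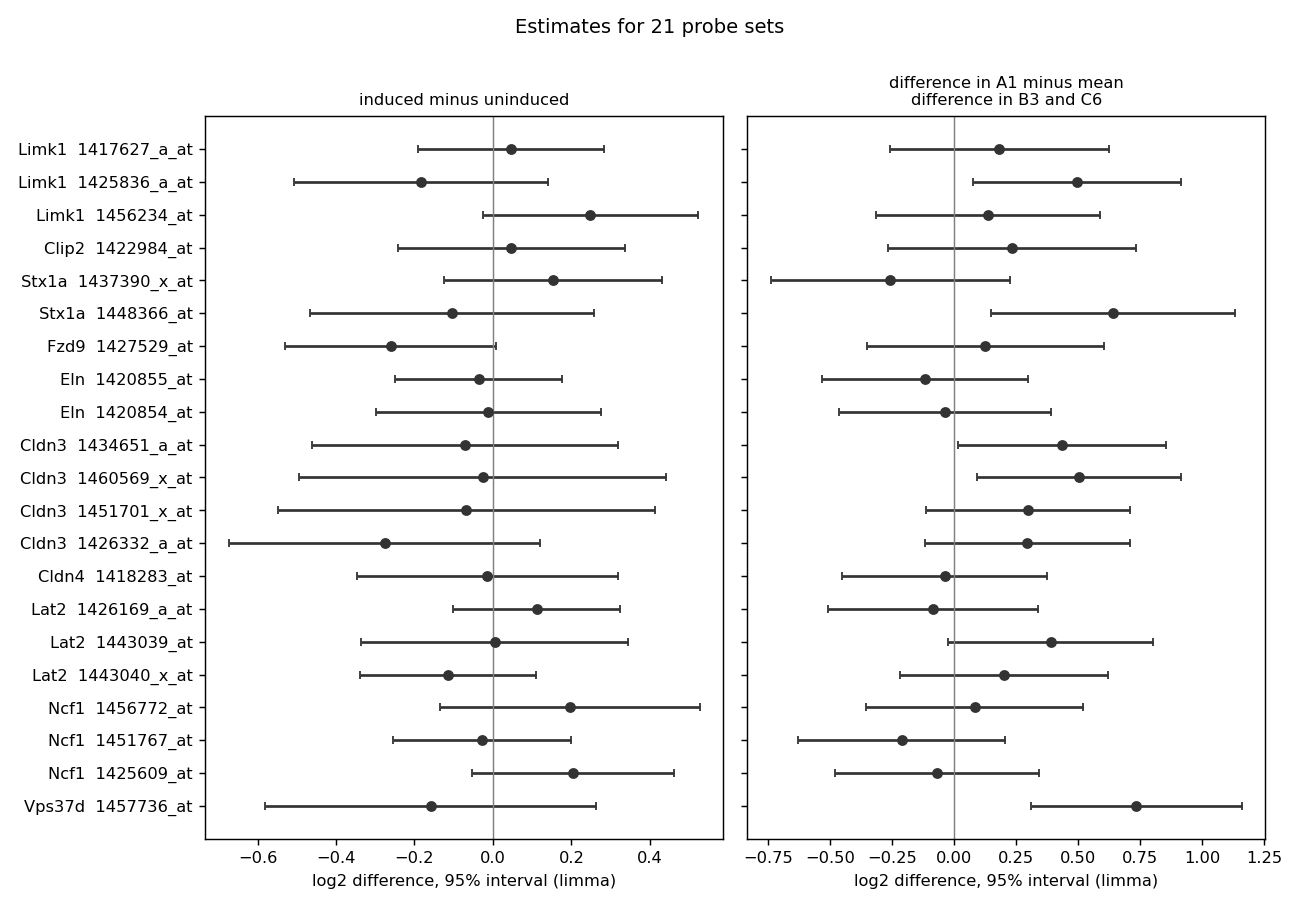
Log2 estimates with 95% limma intervals for the 21 probe sets, on the left for induced minus uninduced arrays and on the right for the difference in A1 minus the mean difference in B3 and C6. Every interval on the left holds 0, and 5 on the right do not, those of Vps37d, 2 of Cldn3, 1 of Stx1a and 1 of Limk1; none passed after adjustment over all probe sets.

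Levels were then compared between clones, with the induction state as a covariate and 2 arrays for each clone. Limma's moderated F test called none of the 21 and 509 of all probe sets (1.13%); an unadjusted p under 0.05 was found for 4 of the 21 (19%) and for 13.7% of all. These 4 were all claudins. The Cldn3 probe set 1451701_x_at averaged 6.08 (A1), 6.70 (B3) and 6.40 (C6), and no clone's arrays overlapped another's (limma F test, unadjusted p = 0.00673, adjusted p = 0.157). A1 was below B3 there, by -0.62 ± 0.13 (SE, limma adjusted p = 0.0924), and below C6, by -0.32 ± 0.13 (limma adjusted p = 0.475). The 3 other probe sets of Cldn3 had the same order of clone means, with A1 minus B3 at -0.42, -0.55 and -0.47. Cldn4 averaged 8.10 (A1), 8.47 (B3) and 8.16 (C6). A1 minus B3 was -0.37 ± 0.11 (limma adjusted p = 0.211) and B3 minus C6 0.30 ± 0.11 (limma adjusted p = 0.389), while A1 minus C6 was -0.06 ± 0.11. Claudins outside the set varied between the clones too. Cldn7 averaged 6.20 (A1), 7.11 (B3) and 6.76 (C6) (limma F test, adjusted p = 0.0547). Cldn1, Cldn2, Cldn6 and Cldn23 were also lowest in A1, while Cldn5 and Cldn12 were highest there.

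Both arrays of B3 lay above the 4 others at 7 of the 21 member probe sets (33.3%, of all probe sets 14.4%), which were 3 of Cldn3 and 1 each of Cldn4, Eln, Lat2 and Ncf1. Both arrays of A1 lay below the 4 others at 5 (23.8%, of all 11.5%), which were 3 of Cldn3 and 1 each of Cldn4 and Eln. At 4 (19%, of all 3.19%) both held, so the clones stood apart in the order A1, C6, B3 from low to high; 2 of these 4 read Cldn3. Clone means in that order were found at 10 of the 21 and at 23.6% of all probe sets. All 4 probe sets of Cldn3 are among these 10, so they are not separate evidence. By the brightest probe set of each gene the order held for 4 of the 10 genes. Clip2 is 1 of these, though its means in B3 and C6 were both 4.69. The share of all genes with this order was not counted, so the 4 of 10 cannot be set against a background. At no member probe set did both arrays of C6 lie above or below the other 4. The Eln probe set among the 4 (1420854_at) averaged 5.42 (A1), 5.71 (B3) and 5.56 (C6) (limma F test, adjusted p = 0.466), and Ncf1 1456772_at 4.40 (A1), 4.67 (B3) and 4.31 (C6) (adjusted p = 0.367). For Limk1, Clip2, Stx1a, Fzd9 and Vps37d no clone had both arrays above or below the other 4. Of the trophectoderm list 2 of 8 genes passed between the clones, where 304 of all 18193 genes did by their brightest probe set. Both are keratins of simple epithelia and were highest in A1. The rest of the list did not share this order, and none of it passed. Cdx2, Elf5 and Gata3 were lowest in A1, Eomes and Krt7 highest there, and Hand1 lay between B3 and C6. Gata3 was below the lower quartile on all 6 arrays. Krt8 averaged 7.85 (A1), 6.36 (B3) and 5.96 (C6) (limma F test, adjusted p = 0.00466) and Krt18 7.29 (A1), 6.49 (B3) and 6.48 (C6) (adjusted p = 0.0445). Their part in the claudin levels was not tested.

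**Figure D4:**
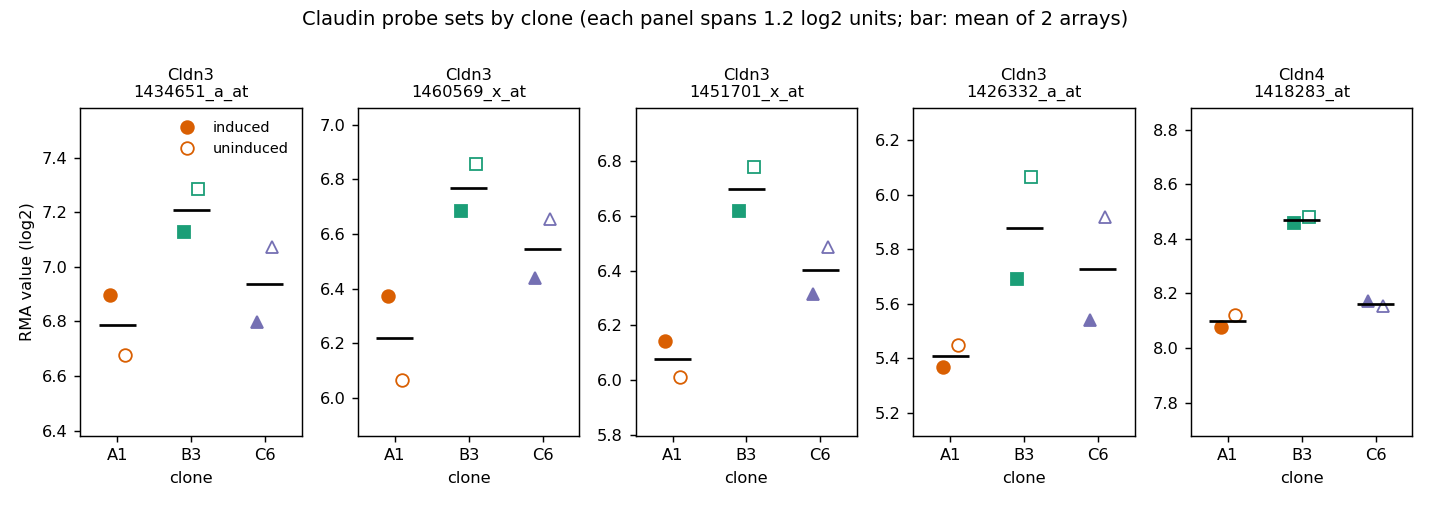
RMA values (log2) of the 4 Cldn3 probe sets and the Cldn4 probe set by clone, with filled symbols for induced and open symbols for uninduced arrays and a bar for the average of 2 arrays. By this average B3 is the highest clone and A1 the lowest in each panel, and the arrays of a clone lie closest together for Cldn4.

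Genes whose profile over the 6 arrays was most like that of a member were looked up for the 5 members in the brighter range (a mean level of 6 or more), among 9560 genes. For Cldn3 they were Shf, Cpne1 and Slc9a3r2 (r = 0.998, 0.997 and 0.995), and for Cldn4 Gldc, Acsl5 and Znf41-ps (r = 0.998, 0.997 and 0.994). Gldc encodes the glycine decarboxylase of the glycine cleavage system, and Slc9a3r2 a scaffold protein under the plasma membrane. Of these 6, Znf41-ps differed between the clones past the threshold (limma F test, adjusted p = 0.0273). For Fzd9 the closest were Supv3l1, Krba1 and Uroc1 (r = 0.982, 0.980 and 0.978), for Limk1 Cstf1, Aar2 and Rps6kl1 (r = 0.976, 0.966 and 0.964) and for Stx1a Eif2b1, Prss16 and Coq7 (r = 0.985, 0.968 and 0.968). With 6 points and so many genes these values are a description only. Among the members, Cldn3 ran with its neighbour Cldn4 at r = 0.80 and with Vps37d at r = 0.77, and Stx1a ran against Fzd9 (r = -0.79).

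Genes that work with these proteins were looked at through 10 lists of 137 genes, of which 122 were analysed here. Between induced and uninduced arrays 0 of the 122 passed (limma), with 47 above and 75 below 0 and a median of -0.02, where 9234 of all 18193 genes lay below 0. By list, the genes below 0 were 7 of 7 for NADPH oxidase, 10 of 12 for the elastic fibre, 11 of 15 for the tight junction, 7 of 11 for the adaptors and 7 of 12 for cofilin. They were 7 of 12 for SNARE fusion, 7 of 13 for the Frizzled and LRP receptors, 4 of 8 for ESCRT-I, 10 of 21 for other genes of the region and 5 of 11 for microtubule plus ends. In the contrast of A1 with B3 and C6, 4 of the 122 passed (3.28%), all higher in A1, where 488 of all 18193 genes did by their brightest probe set. Most of the 122 had a mean level of 6 or more, a range in which 939 of 17168 probe sets passed. In the cofilin list (12 genes, median 0.04) the genes that passed were Tesk1, a kinase that like Limk1 phosphorylates cofilin, and Pak4, which activates LIM kinases. Tesk1 stood at 1.22 ± 0.19 (SE, limma adjusted p = 0.015), with clone differences of 0.53 (A1), -0.62 (B3) and -0.75 (C6). Pak4 stood at 1.02 ± 0.21 (limma adjusted p = 0.0393), with 0.55 (A1), -0.30 (B3) and -0.65 (C6). In the SNARE list (12 genes, median -0.05) 1 passed, Vamp2, the vesicle partner of syntaxin-1A, at 1.10 ± 0.21 (limma adjusted p = 0.0325), with 0.64 (A1), -0.27 (B3) and -0.64 (C6). Among 13 Frizzled and LRP receptors (median 0.14) 1 passed, Lrp5, a Wnt co-receptor, at 2.65 ± 0.39 (limma adjusted p = 0.0126), with 1.10 (A1), -0.96 (B3) and -2.15 (C6). Outside these 10 lists, 1 of 10 stem cell genes passed this contrast, Esrrb, at 1.02 ± 0.20 (limma adjusted p = 0.0347). Its clone differences were 0.51 (A1), -0.36 (B3) and -0.65 (C6).

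The remaining 7 lists had no gene past the threshold in that contrast, and the values that follow are contrasts of the genes with the smallest p. The median was 0.04 over 21 other genes of the region, with Ywhag at 0.76 (limma adjusted p = 0.0725) and Gtf2ird1 at 0.72 (limma adjusted p = 0.117). It was 0.09 over 11 microtubule plus end genes, with Pafah1b1 at 0.66 and Clip3 at 0.64. Over 12 elastic fibre genes it was 0.04, with Ltbp4 at 0.75 and Fbln1 at 0.73. Over 15 tight junction genes it was 0.10, with Cldn12 at -0.63 and Cldn1 at 0.38. The adaptor list (11 genes, median 0.25) held Sos1 at -0.50 and Syk at 0.42, and the NADPH oxidase list (7 genes, median 0.30) Rac1 at 0.46 and Nox4 at 0.43. Nox4 was below the lower quartile on 4 of the 6 arrays. ESCRT-I (8 genes, median 0.04) held Vps37c at -0.63 and Vps37b at 0.56. Between the clones 2 of the 122 passed, where 304 of all 18193 genes did by their brightest probe set. Stx3, a syntaxin of epithelial cells, averaged 9.10 (A1), 10.40 (B3) and 10.64 (C6) (limma F test, adjusted p = 0.0393), and Mfap5, a microfibril protein, 6.16 (A1), 5.20 (B3) and 5.64 (C6) (adjusted p = 0.0339).

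**Figure D5:**
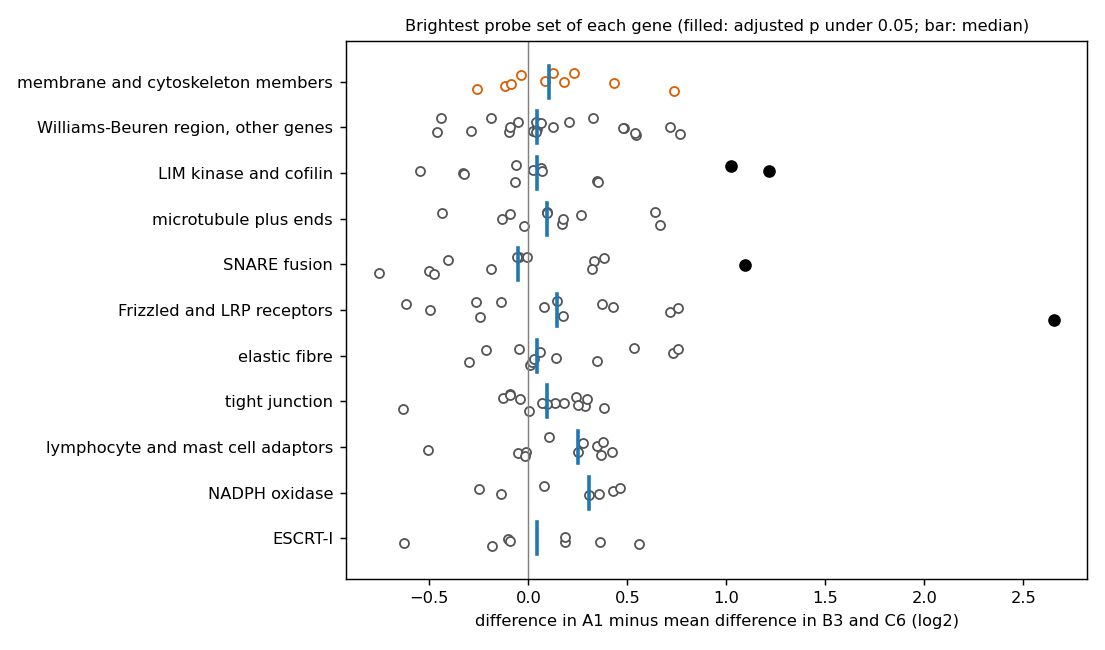
Contrast of the difference in A1 with the mean difference in B3 and C6 (log2) for the brightest probe set of each gene, with the 10 membrane and cytoskeleton genes in the top row and the 10 lists below, filled points for an adjusted p under 0.05 and a bar at the median. The filled points are Tesk1, Pak4, Vamp2 and Lrp5, and none lies in the top row, where the values run from -0.26 to 0.73.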

How the data were processed

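RNA of 3 embryonic stem cell clones, each induced and uninduced, was measured on Affymetrix mouse expression arrays. The deposited log2 values were made by the authors with robust multiarray averaging (RMA); affy is also named in the submitters' processing notes, with versions not given in the sources used here. These values were used as they stood. Of 45101 probe sets 64 controls were left out; 34945 of the 45037 tested had 1 symbol, 932 several and 9160 none listed. A gene is represented by its brightest probe set, and levels of different probe sets were not ranked.

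Comparisons used limma 3.58.1 in R 4.3.3 (two-sided, Benjamini-Hochberg adjustment over all probe sets, threshold 0.05), tested on simulated data first; the t-test of the methods was run as Welch's. The members, lists and contrasts were chosen with earlier results of these data known. The genes named were all member probe sets, members of the 10 lists past the threshold or the 2 with the smallest p, and the 3 most similar genes. Some marker genes and further claudins were named beside these. Each clone gave 1 induced and 1 uninduced array, which pairs them; the deviations of these arrays from their group means correlated at 0.19 (A1), 0.53 (B3) and 0.31 (C6). The main fit had no block. The methods name a t-test of induced versus uninduced arrays and do not say whether it was paired. Only 3 arrays a group limit the precision. The labels call the arrays biological replicates, 1 clone each. Alternatives covered the block, test, variance model, array weights, normalization, filters and left-out arrays or clones. Promoter letters came from RefSeq (GRCm38.p6).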

Additional observations from a re-analysis of the deposited data

How the results depend on the processing

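None of the 396 values of member probe sets over 20 alternatives to the comparison of induced with uninduced arrays passed the threshold (smallest adjusted p = 0.0997), nor did any of 102 for the contrast of A1 (smallest adjusted p = 0.0632, Vps37d) or of 81 between clones (smallest adjusted p = 0.0841, Cldn3). Over all probe sets the count for induced against uninduced arrays stayed at 0 with the clone as a replicate block, with Welch's test, with an intensity trend, array weights or renormalization, with either filter and at an adjusted p of 0.10. Leaving out arrays or clones gave 0 to 981 calls: the 981 came without both arrays of A1 and with B3 and C6 as a replicate block, and every other such fit gave 0. For the contrast of A1 the count of 1219 became 2355 with a mean of at least 6, 458 with 1 probe set per gene and 2985 with an intensity trend. Between clones the count of 509 became 108 with a mean of at least 6 and 1026 without the induction state. The filters test fewer probe sets and pool the spread over those alone. The cause of these shifts was not tested. The replicate block changed no call of a member; the smallest unadjusted p of a member with it was 0.0354, for Cldn3 1426332_a_at. With 3 arrays a group an exact permutation test could not go below p = 0.1.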
